A study of Mus musculus with 6 samples.

Results

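Fos, Fosb, Jun, Junb, Egr1, Egr2, Egr3, Atf3 and Zfp36 are immediate early genes. With Jund, a relative of Jun, they were examined here in bone marrow monocytes (BMDM) and brainstem microglia (BSM). The 10 genes were chosen by name, as 10 of the 35237 genes in a table of FPKM, a measure of fragments corrected for transcript length and library size, and as the same symbols among the 36536 entries of a second table, made with ALEXA-Seq from the same libraries. The study set out to find transcripts that tell the monocytes that enter the brain apart from its resident microglia. Its RNA-Seq data comprise 3 libraries of BMDM (CD11b+ CD45high CD115+ Ly6G- cells) and 3 of BSM (CD11b+ CD45low CD115low Ly6G- cells). Each library was made from cells pooled from C57BL/6 mice at 6 weeks of age. According to the labels, replicate 1 of both cell types came from male and replicates 2 and 3 from female mice, so sex and replicate 1 cannot be told apart. The study's Results name male mice, whereas its RNA quality readings list the same sexes as the labels. The replicates are labelled as biological, and every p-value below measures the spread between these pools. The mice were perfused, and the cells were freed from tissue, enriched on a Percoll gradient, sorted, snap-frozen and amplified from very little RNA, so that all values describe sorted cells after handling. Tissue of origin and preparation cannot be told apart in this design.

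Immediate early genes are transcribed within minutes of a signal, without the need for new protein synthesis. Jun and Fos proteins pair through leucine zippers to form AP-1, which binds DNA. Jun proteins can pair with each other, with Fos proteins or with Atf3, whereas Fos proteins need a Jun partner. The Egr proteins are zinc finger factors that bind GC-rich sites, and Zfp36 (tristetraprolin) binds AU-rich elements in mRNAs and speeds up their decay. In the brain these genes are best known as markers of recent neuronal activity, and in macrophages as early responders to growth factors and inflammatory signals.

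In BSM, the transcripts of Egr1, Jun and Zfp36 were abundant, whereas in BMDM only Zfp36 was. Egr1 had a mean of 121 FPKM in BSM and 0.401 in BMDM, Jun 108 and 10.3, and Zfp36 722 and 231. Fos, by contrast, had 22.7 ± 7.09 FPKM (SD, n = 3) in BSM and 15.9 ± 7.84 (SD, n = 3) in BMDM, and its libraries overlapped. Together the 10 genes made up 1.84%, 1.23% and 1.16% of the summed FPKM of BSM replicates 1, 2 and 3, against 0.106%, 0.122% and 0.217% in the BMDM replicates. Zfp36 alone was between 70.7% and 73.9% of this sum in BSM and between 84.6% and 90.9% in BMDM. The plot of FPKM by library shows all of these values.

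**Figure D1:**
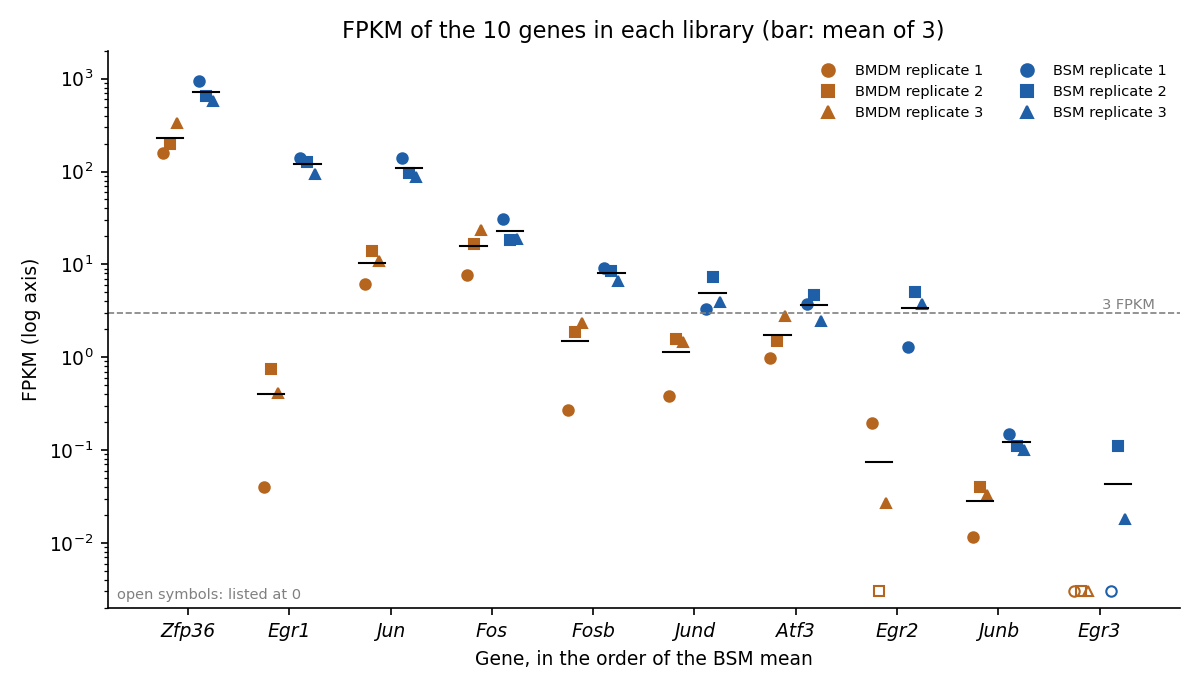
FPKM on a log axis of the 10 genes in the 3 BMDM (brown) and 3 BSM (blue) libraries, with the mean of each group as a bar and values listed at 0 as open symbols. Egr1 lies between 94.3 and 141 in BSM and below 1 in BMDM, whereas the Fos libraries of both cell types overlap.

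Sequences upstream of these genes were read from RefSeq, build GRCm38.p6, to show the letters next to the start sites of members. Of the 10 genes, 8 had a window of 300 bases, from 250 before to 50 after a start site. Egr1 and Egr3 had no window and were not searched. Each window was searched on both strands for the CArG box, which serum response factor binds, for the cAMP response element TGACGTCA (CRE), for the AP-1 site TGANTCA, for TGACATCA, the AP-1-like element known from the Jun promoter, and for the Egr site GCGNGGGCG. The stretches below end at the start site or surround a match, run 5′ to 3′ on the strand of the gene, and have the matches in capitals.
Jun (chr4:95052223-95052472, minus strand): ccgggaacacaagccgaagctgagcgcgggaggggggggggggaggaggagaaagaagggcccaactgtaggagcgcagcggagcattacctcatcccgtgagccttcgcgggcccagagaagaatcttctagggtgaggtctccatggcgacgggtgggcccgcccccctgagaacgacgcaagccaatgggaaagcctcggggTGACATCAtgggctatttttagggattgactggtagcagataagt
Zfp36 (chr7:28379229-28379478, minus strand): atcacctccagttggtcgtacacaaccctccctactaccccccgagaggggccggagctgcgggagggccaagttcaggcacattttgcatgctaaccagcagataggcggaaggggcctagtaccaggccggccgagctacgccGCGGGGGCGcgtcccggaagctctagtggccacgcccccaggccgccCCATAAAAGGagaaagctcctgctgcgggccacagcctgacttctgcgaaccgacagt
Egr2, downstream start sites (chr10:67537787-67537816, plus strand): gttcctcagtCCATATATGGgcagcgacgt
Fosb (chr7:19310076-19310105, minus strand): tgacgcaagcGCGGGGGCGggtcccggagg
Fos (chr12:85473640-85473889, plus strand): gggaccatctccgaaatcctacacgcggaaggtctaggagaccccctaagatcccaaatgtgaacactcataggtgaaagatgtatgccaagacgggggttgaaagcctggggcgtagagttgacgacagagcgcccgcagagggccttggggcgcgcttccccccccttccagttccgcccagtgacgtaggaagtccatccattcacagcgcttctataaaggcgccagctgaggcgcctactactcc

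A CArG box was found for Zfp36, with its first base 58 bases before the start site, and for Egr2, in 4 of its 5 windows. The Egr2 window that starts at base 67537316 held CCTTTTTTGG. The other Egr2 windows with a box overlap and share the same CCATATATGG. Of all 32851 promoter windows 1.63% held a CArG box, and of all 27025 genes with a window 1.81% did. An Egr site, present in 5.55% of all windows, was found for Zfp36 and Fosb, at 105 and 50 bases before the start. TGACATCA, found in 3.62% of all windows, was present for Jun at 45 bases before the start. None of the 8 genes with a window held the CRE as TGACGTCA or the AP-1 site as TGANTCA. These were present in 1.79% and 7.81% of all windows. Only exact matches were counted, so close variants, such as tgacgtag in the Fos stretch, were not. The windows of Fos, Atf3, Junb and Jund held none of the 5 motifs, and of these genes Jund was called higher in BSM. A match describes letters only, and the elements that lie farther from a start site are outside these windows.

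A few features of the whole table bear on every comparison. BMDM libraries had a total of 163198.7 to 194184.2 FPKM over all genes, and BSM libraries one of 68287.8 to 75021.4. Differential expression was tested with limma on log2(FPKM + 1) over the 6364 genes with at least 3 FPKM in at least 1 library, and log2 fold changes are given as BSM minus BMDM, a scale on which the change of low genes is understated. Their median over all 6364 genes was -0.81 as deposited, -0.02 after quantile normalization, -0.14 after upper quartile scaling and 0.23 after scaling each library to the same sum. Adjusted p-values under 0.05 were found for 9.22% of the genes as higher in BSM and 45.3% as higher in BMDM, and quantile normalization changed these counts from 587 and 2883 to 1227 and 1378. The depth behind a single FPKM is unknown, and in sorted pools fewer cells expressing a gene and less RNA per cell cannot be told apart. Microglia markers summed to 907 to 1028 FPKM in BSM and 36.7 to 41.0 in BMDM, and monocyte markers to 606 to 662 in BMDM and 0.861 to 1.58 in BSM.

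Of the 10 members, 8 passed the minimum of 3 FPKM. Fosb, Jund, Egr1, Egr2 and Atf3 passed only through their BSM libraries, so a difference in that direction was built into their selection, and the number of members called is no support by itself. The same limit holds for some called list genes named below. Of these, Zfp36l1, Maf, Dusp6 and Plau passed only through BSM. Nab1, Cebpb, Klf10, Nfil3, Gadd45a, Mapkapk2, Elavl1, Braf and Hspe1 passed only through BMDM. Junb and Egr3 stayed under the minimum in all 6 libraries. Egr1, Egr2, Jun, Jund, Fosb and Zfp36 were higher in BSM with an adjusted p-value under 0.05, Fos and Atf3 did not pass, and none was higher in BMDM. In these same 6 genes, and in Junb, every BSM library lay above every BMDM library, as it did in 11.6% of all genes tested. The median log2 fold change was 1.80 over the 8 members tested and -0.81 over all genes. ALEXA-Seq values, which are on a linear scale whose unit is not given in the sources used here, gave calls for the same 6 members among its 6364 highest entries, of which 10.9% were called higher in BSM, 37.1% higher in BMDM, and 14.6% had every BSM library above every BMDM library. Both tables come from the same reads and are not independent.

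**Figure D2:**
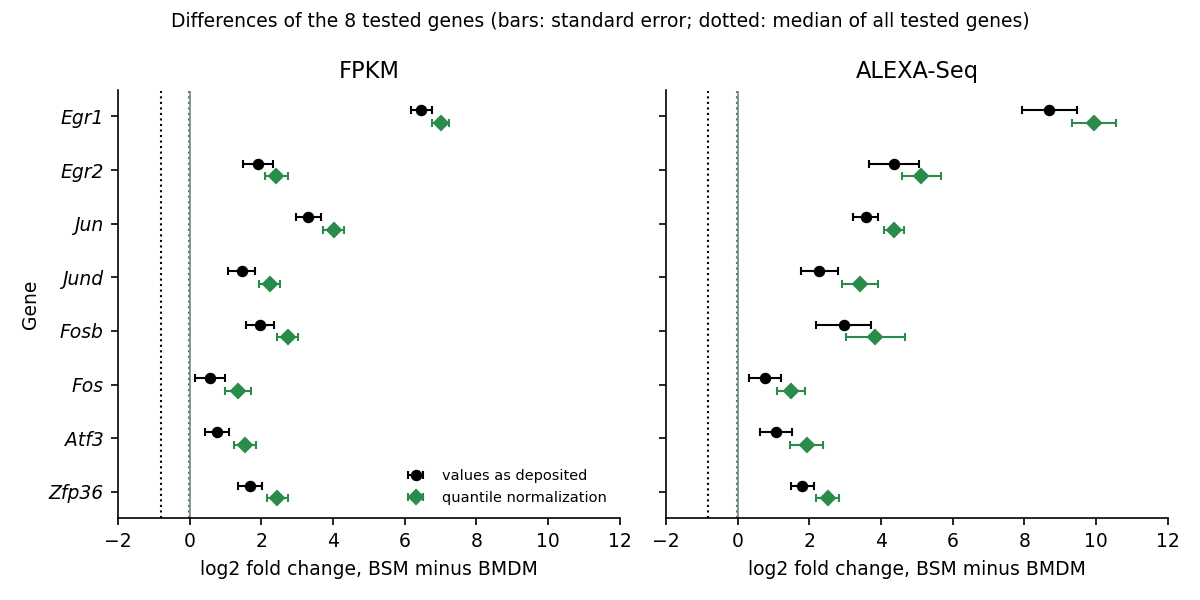
Log2 fold changes (BSM minus BMDM, with standard errors) of the 8 tested genes in both tables, as deposited (black) and after quantile normalization (green), with the median of all tested genes as dotted lines. Egr1 is farthest to the right at 6.46 in FPKM and 8.70 in ALEXA-Seq, and Fos and Atf3 are nearest to 0.

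Jun, the AP-1 subunit that can pair with itself, had 6.10, 14.0 and 10.8 FPKM in BMDM replicates 1, 2 and 3 and 141, 97.5 and 86.4 in the BSM replicates. The lowest BSM library was thus far above the highest BMDM library. The ratio of the means was 10.5 and the log2 fold change 3.31 (standard error, SE, 0.34, limma adjusted p = 0.000174 by the Benjamini-Hochberg method over all genes). In ALEXA-Seq the same libraries had 117, 264 and 194 in BMDM and 3003, 1985 and 1733 in BSM, a ratio of 11.7. Among all genes of a library, Jun ranked 49, 76 and 80 by FPKM in BSM and 2758, 1540 and 1910 in BMDM. It lies on chr4:94715725-94718913 in mm9, the build named in the submitters' processing notes.

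Jund, the Jun protein usually described as present without stimulation, had 0.380, 1.57 and 1.47 FPKM in BMDM and 3.32, 7.39 and 3.95 in BSM (chr8:73222848-73224514, mm9). The groups did not overlap, and BSM replicate 2 stood highest. Their means had a ratio of 4.30, with a log2 fold change of 1.45 (SE 0.37, limma adjusted p = 0.0121). Its mean FPKM in BSM was 0.0451 of that of Jun.

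Junb, which often opposes Jun at shared target genes, was close to 0 in both tables. Its FPKM were 0.0116, 0.0399 and 0.0331 in BMDM and 0.150, 0.112 and 0.101 in BSM, and its ALEXA-Seq values 0.379, 0.708 and 0.657 in BMDM and 4.25, 2.71 and 1.72 in BSM. The groups did not overlap, with a ratio of mean FPKM of 4.29, and the exact two-sided permutation test gave p = 0.1, the smallest it can give with 3 against 3 libraries. Without any minimum, limma gave Junb an adjusted p of 0.0194 for FPKM and 0.13 for ALEXA-Seq. The deposited gene model of Junb spans 1035 bases (chr8:87501294-87502328, mm9), against 4235 for the gene in GENCODE M21. Shorter deposited spans were not particular to Junb. They were also found for Egr3 (2713 against 5412), Egr1 (3778 against 5162), Zfp36 (2472 against 3470) and Atf3 (13045 against 47744), among others.

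Both low Jun genes have very GC-rich transcripts. The longest transcript in GENCODE M21 has 62.6% GC for Junb, more than 99.1% of the 19739 genes above 0 that could be matched, and 67.1% for Jund, more than 99.9%. For Jun it has 55.5%, and for the other members between 51.3% and 57.3%. Across the table, the share of genes with 1 FPKM or more in any library fell from 52.6% of 5592 genes under 45% GC to 23.0% of 583 genes between 60% and 65% and 23.7% of 59 genes above that, as the plot by GC content shows. The part of GC content in the levels of Junb and Jund was not tested.

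**Figure D3:**
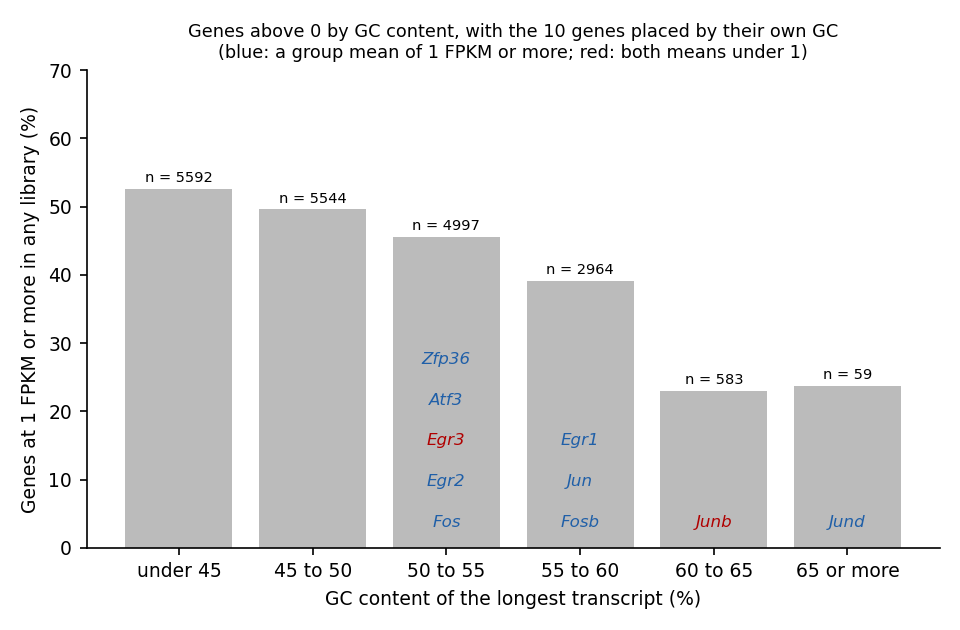
Share of genes with 1 FPKM or more in any library (bars, in percent) by the GC content of their longest transcript, with the number of genes above each bar and the 10 members written in their own bin. Junb and Jund are in the 2 bins with the smallest shares, 23.0% and 23.7%, and Egr3, the other member with both means under 1 FPKM, is in the bin from 50 to 55%.

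Fos, the partner that needs a Jun protein, had 7.73, 16.7 and 23.4 FPKM in BMDM and 30.9, 18.5 and 18.7 in BSM (chr12:86814840-86818223, mm9). BMDM replicate 3 was above BSM replicates 2 and 3, so the groups overlapped, and BSM replicate 1 stood above the rest. The ratio of the means was 1.43 and the log2 fold change 0.57 (SE 0.41, limma adjusted p = 0.264). In ALEXA-Seq the log2 fold change was 0.77 (limma adjusted p = 0.191). Fos was 1.38 above the median of all genes on the log2 scale, and once the libraries were brought to a common level it passed the test, with 1.35 after quantile normalization (limma adjusted p = 0.0221), 1.38 after upper quartile scaling (0.0253) and 1.82 after scaling to the same sum (0.0103). With the female libraries alone, and values as deposited, its log2 fold change was -0.08 (limma adjusted p = 0.759). Without BMDM replicate 1, the lowest Fos library, it was 0.15.

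Fosb, a relative of Fos, had 0.271, 1.89 and 2.36 FPKM in BMDM and 9.20, 8.57 and 6.59 in BSM (chr7:19888070-19895394, mm9). All BSM libraries were above 3 FPKM and all BMDM libraries below it. In Fosb the means had a ratio of 5.39 and the log2 fold change was 1.97 (SE 0.39, limma adjusted p = 0.00404).

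Atf3, a CREB/ATF family factor that pairs with Jun proteins and is known as a stress response gene, had 0.981, 1.49 and 2.78 FPKM in BMDM and 3.71, 4.71 and 2.43 in BSM (chr1:192994175-193007219, mm9). BSM replicate 3 was below BMDM replicate 3. Its log2 fold change of 0.77 (SE 0.33, limma adjusted p = 0.0823) did not pass, whereas after quantile normalization 1.54 did (limma adjusted p = 0.00563). Atf3 thus shared with Fos that its call depended on how the libraries were scaled.

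Because FPKM of the same library are divided by a common number, ratios between members do not depend on that scaling. Jun exceeded Fos in every BSM library, by 4.57, 5.26 and 4.61 times, and by FPKM stayed below it in every BMDM library, at 0.788, 0.837 and 0.464 times. By ALEXA-Seq the ratios were 6.09, 7.16 and 6.09 in BSM and 1.14, 1.09 and 0.625 in BMDM, so that Jun was below Fos only in BMDM replicate 3 in that table. The Jun to Fos ratio by FPKM was 7.13 times higher in BSM (exact two-sided permutation p = 0.1, the smallest possible), and 6.99 times by ALEXA-Seq. The Fosb to Fos ratio was 4.94 times higher and the Jund to Fos ratio 3.15 times higher, both without overlap, whereas the Atf3 to Fos ratio overlapped between the groups (1.43 times, exact permutation p = 0.2). Among the AP-1 subunits, the order of mean FPKM was Fos, Jun, Fosb, Jund and Junb in BMDM and Jun, Fos, Fosb, Jund and Junb in BSM. In BMDM the libraries of Fos and Jun overlapped, as did those of Fosb and Jund in both cell types.

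**Figure D4:**
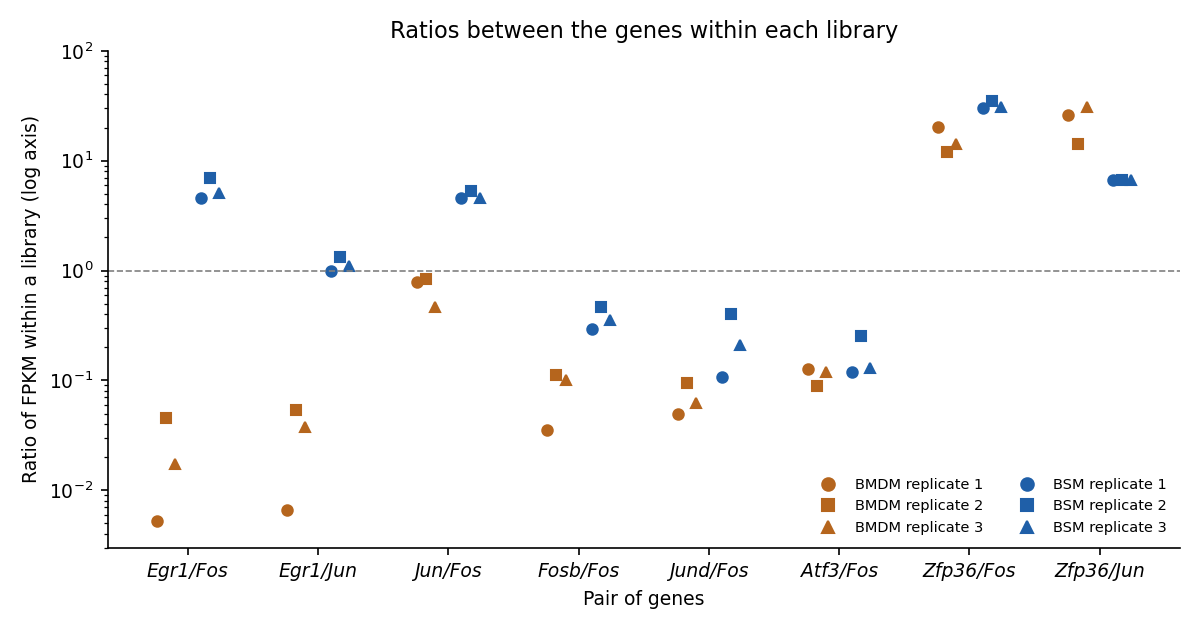
Ratios of FPKM between pairs of members within each library on a log axis, for BMDM (brown) and BSM (blue), with 1 as a dashed line. The Jun to Fos ratio lies between 4.57 and 5.26 in BSM and between 0.464 and 0.837 in BMDM, Egr1 and Jun are near 1 to 1 in BSM, and the Atf3 to Fos ratios overlap.

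Egr1, which growth factors induce in many cell types, had the largest log2 fold change of the 8 members tested in both tables. It had 0.0404, 0.753 and 0.408 FPKM in BMDM and 141, 128 and 94.3 in BSM. In other words, a transcript ranked 50, 55 and 70 among all genes in the BSM libraries was ranked 13532, 8516 and 9711 in BMDM. Its mean was 303 times higher in BSM, with a log2 fold change of 6.46 (SE 0.29, limma adjusted p = 3.40e-06), the 7th highest of the 6364 genes tested. By ALEXA-Seq it had 0.843, 16.1 and 8.23 in BMDM and 3420, 2961 and 2080 in BSM, a ratio of 336. In BSM, Egr1 and Jun were at similar levels, with Egr1 to Jun ratios of 1.000, 1.32 and 1.09, against 0.00662, 0.0539 and 0.0377 in BMDM. Egr1 lies on chr18:35020861-35024638 in mm9.

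Egr2, which is also required for myelin formation by Schwann cells, had 0.196 and 0.0269 FPKM in BMDM replicates 1 and 3, was listed at 0 in BMDM replicate 2, and had 1.28, 5.10 and 3.72 in BSM (chr10:66998223-67004936, mm9). BSM replicate 1 was the lowest of its group, unlike for Egr1, where it was the highest. Between the means the ratio was 45.2 and between the medians 138, as the BMDM mean rests mainly on replicate 1, with a log2 fold change of 1.91 (SE 0.41, limma adjusted p = 0.00579). The log2 fold change was 4.28 with a pseudocount of 0.1 in place of 1 (limma adjusted p = 0.00288). At a mean of 3.37 FPKM in BSM, Egr2 was thus far below Egr1.

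Egr3 was listed at 0 in all BMDM libraries and in BSM replicate 1, and had 0.110 and 0.0182 FPKM in BSM replicates 2 and 3 (chr14:70477252-70479964, mm9). No fold can be given against a group listed at 0. Egr4 was listed at 0 in all 6 libraries. Of the corepressors that bind Egr proteins, Nab1 had 11.4, 8.44 and 14.2 FPKM in BMDM and 0.0891, 1.83 and 2.34 in BSM, a log2 fold change of -2.48 (SE 0.44, limma adjusted p = 0.00252), while Nab2 stayed between 0.0121 and 0.0598 in BMDM and between 0.649 and 1.11 in BSM, under the minimum. Nab1 was thus higher in BMDM, although scaled to the same sum its log2 fold change of -1.61 no longer passed (limma adjusted p = 0.0620).

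Zfp36 was the most abundant member in both cell types. It had 157, 200 and 335 FPKM in BMDM and 939, 653 and 573 in BSM (chr7:29161803-29164274, mm9). It ranked 8, 11 and 9 among all genes in the BSM libraries and 68, 55 and 31 in BMDM. Mean FPKM was 3.13 times higher in BSM, with a log2 fold change of 1.68 (SE 0.33, limma adjusted p = 0.00376). Relative to Jun, however, Zfp36 was lower in BSM, with ratios of 6.64, 6.70 and 6.63 against 25.8, 14.3 and 30.9 in BMDM. The ratio in BSM was 0.296 of that in BMDM, without overlap (exact two-sided permutation p = 0.1).

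The paralog Zfp36l1, which binds the same kind of element, had 1.17, 1.07 and 2.14 FPKM in BMDM and 105, 80.7 and 67.7 in BSM, a log2 fold change of 5.12 (SE 0.28, limma adjusted p = 8.40e-06). Zfp36l2, the other paralog, had 12.2, 17.1 and 14.2 FPKM in BMDM and 11.7, 8.22 and 9.36 in BSM, and did not pass (log2 fold change -0.53, limma adjusted p = 0.0985). Over all genes tested 45.3% were higher in BMDM, with a median log2 fold change of -0.81. Of the 9 paralogs and partners tested, Zfp36l1 was higher in BSM, 5 were higher in BMDM and 3 did not pass, with a median of -1.17. Higher in BMDM were Mapkapk2 (-2.32), the kinase that phosphorylates Zfp36, the RNA-binding proteins Hnrnpd (-2.02) and Khsrp (-1.95), the deadenylase scaffold Cnot1 (-1.46), and Elavl1 (-1.17). After quantile normalization all of these but Elavl1 still passed, and the call of Elavl1 was also lost without BMDM replicate 2 or 3 (limma adjusted p of up to 0.0538). With the libraries scaled to the same sum Mapkapk2 still passed, and Hnrnpd, Khsrp and Cnot1 did not (limma adjusted p = 0.0780, 0.187 and 0.400). Khsrp also did not pass after upper quartile scaling (limma adjusted p = 0.0738).

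Most genes of the series did not reach the FPKM minimum, as 6364 of 35237 did. Of 12 mRNAs known as targets of Zfp36, 9 did not reach it, among them Tnf, at 0.266 to 0.394 FPKM in BMDM and 0.235 to 0.284 in BSM. Of the 3 tested, 1 was higher in BSM and 0 in BMDM, against 9.22% and 45.3% of all genes tested. Il10 and Csf2 were listed at 0 throughout. Plau, which encodes urokinase, had 2.09, 1.76 and 1.58 FPKM in BMDM and 14.5, 9.50 and 6.89 in BSM, and was higher in BSM (log2 fold change 1.96, limma adjusted p = 0.00117). As Plau passed the minimum only through BSM, this direction was built into its selection. Ccl3 and Ccl2 did not pass, at 0.78 and 0.55 (limma adjusted p = 0.0681 and 0.246). After quantile normalization both passed, at 1.54 for Ccl3 and 1.24 for Ccl2 (limma adjusted p = 0.00461 and 0.0353), and Ccl3 also passed by ALEXA-Seq (0.92, limma adjusted p = 0.0490).

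Other immediate early genes did not all move with the members. Of the 32 listed, 12 passed the minimum, 4 were higher in BSM, 4 higher in BMDM and 4 did not pass. Over all genes tested the shares were 9.22% higher in BSM and 45.3% higher in BMDM. The median log2 fold change was 0.27 for the 12 genes and -0.81 for all genes. After quantile normalization 7 of the 12 were higher in BSM and 2 in BMDM, against 1227 and 1378 of all 6364 genes. Higher in BSM were Sgk1 (4.31), a kinase induced by serum and glucocorticoids, the antiproliferative gene Btg2 (3.78), the ERK phosphatase Dusp6 (2.99) and the pseudokinase Trib1 (2.96). Btg2 reached 276, 160 and 148 FPKM in BSM, above Jun, against 9.33, 14.7 and 14.7 in BMDM. Higher in BMDM were the Krüppel-like factors Klf10 (-3.11) and Klf4 (-1.93), the bZIP repressor Nfil3 (-1.75) and the growth arrest gene Gadd45a (-1.56), of which Nfil3 and Gadd45a did not pass after quantile normalization (limma adjusted p = 0.0554 and 0.0949). Klf4 did not pass with the libraries scaled to the same sum (-0.87, limma adjusted p = 0.102). Ier2 had no more than 0.245 FPKM in any library, and Nr4a1 had 0.637, 0.782 and 1.34 FPKM in BMDM and no more than 0.112 in BSM. Npas4 was listed at 0 in every library.

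**Figure D5:**
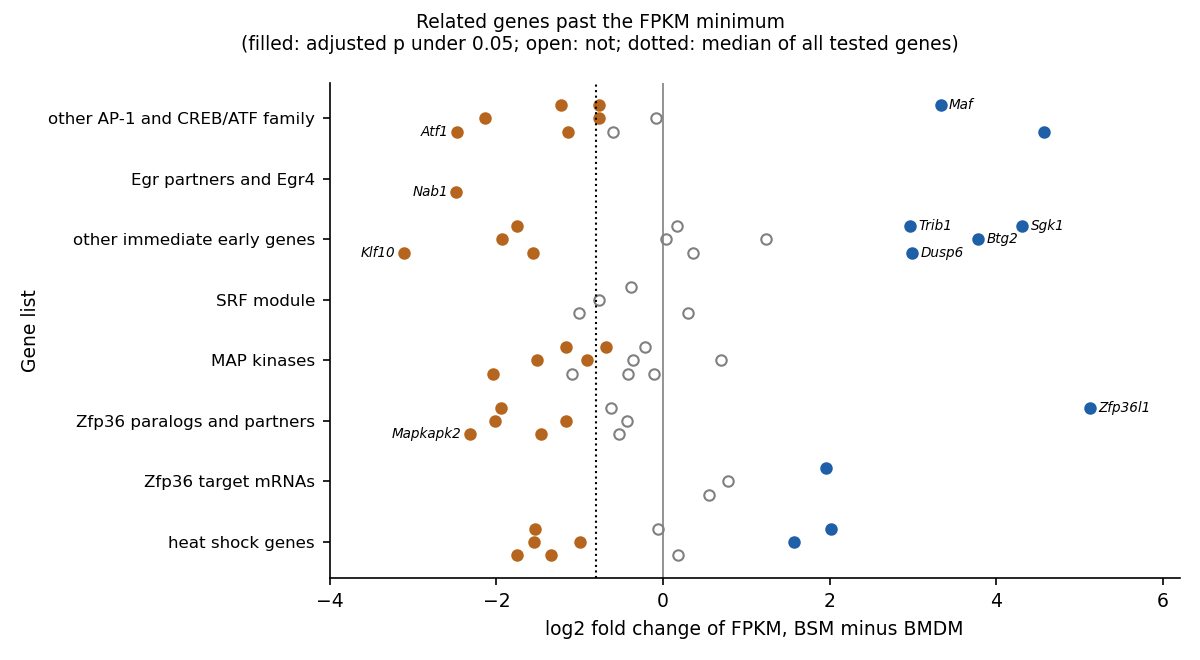
Log2 fold changes of FPKM (BSM minus BMDM) of related genes past the minimum, by list, filled where the adjusted p is under 0.05 and open where it is not, with the median of all tested genes (-0.81) dotted. Zfp36l1, Sgk1, Btg2 and Maf are among those farthest to the right. With values as deposited, no gene of the MAP kinase list was called higher in BSM, against 9.22% of all genes tested.

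Of all genes tested, 9.22% were higher in BSM and 45.3% higher in BMDM, with a median log2 fold change of -0.81. The list of other AP-1 and CREB/ATF family genes also held Cebpb and Cebpd, bZIP factors of the C/EBP family. Of its 21 genes, 10 passed the minimum. Of these 10, 2 were higher in BSM, 6 higher in BMDM and 2 did not pass, with a median log2 fold change of -0.77. Among those higher in BSM was the bZIP factor Maf, with 0.493, 0.537 and 0.611 FPKM in BMDM and 11.9, 15.8 and 16.5 in BSM (log2 fold change 3.33, limma adjusted p = 2.80e-05). Higher in BMDM were Atf1 (-2.47), Cebpb (-2.14), Atf6 (-1.23), Atf2 (-1.14), Atf7 and Creb1 (both -0.77), of which Cebpb alone stayed so after quantile normalization (limma adjusted p = 0.00278). Atf1 had 3.59 FPKM in BSM replicate 1 and 42.0 and 36.9 in replicates 2 and 3, and without BSM replicate 1 its log2 fold change was -1.43. Without BMDM replicate 3, Atf1, Atf6, Atf7 and Creb1 did not pass, and neither did Atf1 without BMDM replicate 1 or 2 and Atf7 without BMDM or BSM replicate 2 (limma adjusted p of up to 0.0918, 0.0575, 0.0818 and 0.0777 for the 4 genes). Scaled to the same sum, Atf2 (0.09), Atf7 (0.34) and Creb1 (0.53) changed sign. Fosl1 and Fosl2, the remaining Fos relatives, had at most 0.683 FPKM in any library. Fosl2 had 0.683, 0.506 and 0.615 FPKM in BMDM and 0.0241, 0.00765 and 0.0265 in BSM, without overlap but under the minimum.

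Of the kinases that signal to these genes, 11 of 16 MAP kinase pathway genes were tested. Their median log2 fold change was -0.68 against -0.81 for all genes. Over all genes 9.22% were higher in BSM and 45.3% higher in BMDM. Of these 11 genes none was higher in BSM, 5 were higher in BMDM and 6 did not pass. Mapk3 (-2.04), Braf (-1.17) and Map2k1 (-0.91) were among those higher in BMDM, but after quantile normalization these 3 did not pass (limma adjusted p = 0.0749, 0.205 and 0.682), and Map2k1 changed sign after scaling to the same sum, to 0.23. Without BMDM replicate 2 or 3, Mapk3 and Map2k1 did not pass (limma adjusted p of up to 0.0684 and 0.103). After quantile normalization 1 of the 11 genes was higher in BSM, Map2k6 (1.36, limma adjusted p = 0.0404), and 1 higher in BMDM. Of the serum response factor module, the 4 genes tested (Elk3, Elk4, Mkl1 and Mkl2) did not pass, though Elk3 did after quantile normalization (1.11, limma adjusted p = 0.0119), and Srf itself had at most 1.81 FPKM.

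Heat shock genes were examined as another class that responds to stress on cells. Of 9 tested, 2 were higher in BSM, 5 higher in BMDM and 2 did not pass. Over all genes tested the shares were 9.22% higher in BSM and 45.3% higher in BMDM. The median log2 fold change was -1.0, against -0.81 for all genes. After quantile normalization 3 heat shock genes were higher in BSM and 3 in BMDM, with a median of -0.21. The endoplasmic reticulum chaperone Hspa5 (2.01) and the constitutive Hspa8 (1.57) were higher in BSM, although ALEXA-Seq gave Hspa8 0.24 (limma adjusted p = 0.409). The stress-inducible Hspa1a and Hspa1b had at most 0.107 and 0.127 FPKM in any library. Hspe1 (-1.75), Hspd1 (-1.55), Hsp90ab1 (-1.54), Hsph1 (-1.34) and Hsp90aa1 (-1.0) were higher in BMDM, and after scaling to the same sum none of the 5 passed and Hsp90aa1 changed sign (0.28). Hsp90aa1 also did not pass without BMDM replicate 1 or 3 or BSM replicate 3 (limma adjusted p of up to 0.0853).

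Markers of other cells were measured in the same libraries, since neurons, among others, transcribe immediate early genes. The neuron markers in the table (7 of 9) summed to at most 0.328 FPKM in BSM, with Gad1, Slc17a6 and Stmn2 at 0. The part of neuronal RNA in the BSM values of the members, at 86.4 FPKM or more for Egr1 and Jun, was not tested. Astrocyte markers summed to between 5.42 and 9.54 FPKM in BSM and between 0.259 and 0.397 in BMDM, mainly through Slc1a3, with Gfap at 0 in all libraries. Endothelial markers summed to between 1.31 and 2.92 in BSM and 2.32 and 3.87 in BMDM, and oligodendrocyte markers to between 1.78 and 2.13 in BSM and 7.06 and 12.8 in BMDM. Perivascular macrophage markers came to 2.08 to 5.17 FPKM in BSM and 113 to 159 in BMDM, where F13a1, also a monocyte marker, was the highest. Granulocyte markers summed to 343 FPKM in BMDM replicate 2, to 97.9 in replicate 3, to less in replicate 1, and to no more than 0.0714 in BSM, erythroid markers to 27.9, 119 and 19.1 against at most 0.338, and lymphocyte markers to at most 3.19 and 0.0793. The part of the granulocyte and erythroid RNA in the BMDM values of the members was not tested.

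BMDM replicate 1 had the lowest FPKM of its group for 8 of the 10 genes, all but Egr2 and Egr3, as it did for 56.3% of all genes tested. BSM replicate 1 had the highest FPKM of 6 (Fos, Fosb, Jun, Junb, Egr1 and Zfp36) and the lowest of 3 (Jund, Egr2 and Egr3), where it was the highest for 31.3% and the lowest for 59.7% of all genes tested. Both are male libraries by the labels, and BSM replicate 1 also had the fewest genes with 1 FPKM or more (5155, against 6518 and 6335 in the other BSM libraries). In the study's own quality readings, this library had the lowest RNA concentration and by far the lowest RNA integrity number, and the part of RNA quality in its values was not tested. With replicates 2 and 3 alone the same 6 members were called in both tables, and without each library in turn as well. The highest BSM library exceeded the lowest by 1.5 times for Egr1, 1.64 times for Jun and Zfp36, 1.67 times for Fos and 3.99 times for Egr2. In BMDM the corresponding spreads were 18.7 times for Egr1, 2.29 for Jun, 2.13 for Zfp36 and 3.02 for Fos.

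The genes whose log2(FPKM + 1) followed Fos, Jun and Egr1 most closely over the 6 libraries were looked up among all other genes tested. For Fos they were Dusp1, a MAP kinase phosphatase and itself an immediate early gene (Pearson r = 0.9559, n = 6), Tgoln1 (0.9533) and Ncoa5 (0.9526). Dusp1 had 5.38, 11.5 and 22.9 FPKM in BMDM and 52.5, 22.9 and 18.6 in BSM and, like Fos, did not pass the test (log2 fold change 1.24, limma adjusted p = 0.0861). After quantile normalization Dusp1 passed, at 1.99 (limma adjusted p = 0.0155). For Jun they were Dennd4a (0.9987), Sgk1 (0.9982) and Slc29a3 (0.9978), and for Egr1 Ctsl (0.9993), Spata13 (0.9992) and the microglial receptor gene P2ry13 (0.9992). As the libraries form 2 separate groups, a high r follows from any large difference between BMDM and BSM, and 256 genes for Jun and 296 for Egr1, but 3 for Fos, reached an r of 0.95.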

How the data were processed

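RNA-Seq libraries of 3 BMDM and 3 BSM pools were analysed, grouped by the sample labels. The authors aligned 100 basepair paired-end reads to mm9 with TopHat 1.3.1 and Bowtie 0.12.7 and deposited FPKM for each gene from Cufflinks 1.0.3, per the submitters' processing notes. They also deposited an ALEXA-Seq signal for each gene. Neither table holds read counts, so depth per gene is unknown. Starts were read as counted from 0 (7538 of 17762 spans then equal those of GENCODE M21, and 265 otherwise) and are printed from 1. log2(value + 1) was tested with limma 3.58.1 in R 4.3.3, two-sided, with a mean-variance trend and Benjamini-Hochberg adjustment over all 6364 genes, called at 0.05. Ratios were compared by exact permutation in scipy 1.17.1. Scripts were tested on simulated data. Members, gene lists and the rule for named genes (all members, up to 4 called genes a list and direction by log2 fold change, the 3 genes most like Fos, Jun and Egr1) were chosen with earlier results of these data known. Elavl1, Atf7, Creb1, Hsp90aa1 and list genes that did not pass were named in addition, after their values were seen. Some called list genes are not reported here. The motifs and the comparison of GC content were also chosen then.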

Additional observations from a re-analysis of the deposited data

How the results depend on the processing

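The alternatives tried were another pseudocount (0.1), a minimum of 1 FPKM, no minimum, 3 scalings, no trend, library quality weights, the replicate block, the female libraries alone, and each library left out. Egr1, Egr2, Jun, Jund and Zfp36 kept their direction and call under all 16 in both tables, as did Fosb except for ALEXA-Seq without a minimum (2.96, limma adjusted p = 0.0526). Fos changed sign with the female libraries (FPKM, -0.08) and with quality weights (ALEXA-Seq, -0.11), and Fos and Atf3 passed under the 3 scalings in both tables, Atf3 also with weights in ALEXA-Seq (0.59, limma adjusted p = 0.0387); the cause was not tested. The genes called in ALEXA-Seq numbered 3050, 5362 with quality weights, and between 1971 (without BMDM replicate 3) and 3984 (without BSM replicate 1) when a library was left out. Genes higher in BSM and in BMDM numbered 1051 and 1380 after upper quartile scaling and 1585 and 968 after scaling to the same sum (FPKM), and 1161 and 1201, 1349 and 1439 (quantile), and 1920 and 843 for ALEXA-Seq. With quality weights 881 genes were higher in BSM by FPKM, and 1344 and 4018 higher in BSM and in BMDM by ALEXA-Seq. Same-numbered libraries share the labelled sex, and their deviations from the group means had correlations of -0.019, -0.008 and 0.134. With so few libraries in each group, these values cannot show whether the libraries were paired. The replicate block was fitted as an alternative only. With it 3471 genes were called by FPKM instead of 3470, and 6 members in each table. By medians the ratio of BSM to BMDM was 138 for Egr2 and 3.38 for Junb. Reads behind low values such as those of Junb, Egr2 and Egr3 are unknown.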
